A study of Mus musculus with 12 samples.

Results

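Transcription factor genes of the pluripotency network, with 1 gene for a chromatin factor, were followed by their symbols through every library of the series: Pou5f1, Nanog, Sox2, Sall4, Prdm14, Tfcp2l1, Zfp42, Utf1, Tbx3 and Sox21. They are 10 of the 55401 mouse genes in the count files, and were picked by name with earlier results of these data known. RNA-seq had been made from 8-cell embryos of B6129F1 females aged 3-5 weeks mated with B6CBAF1 males, and each of the 12 libraries held a pool of 10 embryos. All zygotes received H2B-EGFP mRNA at 150 ng/µl as an injection marker together with siRNA: non-targeting siRNA at 15 µM (control, n = 2), siRNA against Nr5a2 at 5 µM (Nr5a2 KD, n = 3), siRNA against Klf5 at 10 µM (Klf5 KD, n = 3), or both targeting siRNAs (dKD, n = 4; no separate concentrations are given for this mixture). Injection at the zygote stage acts on the whole embryo, so a level is an average over all blastomeres of the pool, and fewer cells that express a gene cannot be told apart from less RNA per cell.

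Pluripotency in the mouse rests on a network of transcription factors that activate each other and repress genes of the differentiated lineages. OCT4 (Pou5f1), SOX2, NANOG and SALL4 form its core. PRDM14, TFCP2L1, TBX3 and REX1 (Zfp42) mark or maintain the naive state of the inner cell mass and of embryonic stem cells, and UTF1 is a chromatin-associated factor at promoters with bivalent marks. SOX21 is a SOXB2 repressor that varies between blastomeres of the early embryo. NR5A2, an orphan nuclear receptor, and KLF5, a zinc finger factor of the KLF family, are both linked to this network in stem cells, and the knockdowns ask which of its genes need either of them at the 8-cell stage.

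Levels are given as CPM, which is counts per 1000000 gene counts with TMM scaling factors taken over the 12 libraries. The libraries held 6676683 to 12560926 counts on genes, and nothing in the labels says that the pools of a group came from separate collections, so a p-value measures the spread between libraries. Nr5a2 fell to 14.7% of control in Nr5a2 KD and to 13.7% in dKD, and Klf5 was at 24.5% in Klf5 KD (adjusted p = 0.0996 by edgeR) and fell to 12.3% in dKD. Klf5 was also at 30.6% of control in Nr5a2 KD, so that group was low in both factors. In 5 knockdown libraries the mitochondrial share of gene counts was below 10%, from 4.41 to 8.28% (Nr5a2 KD 3, Klf5 KD 1 and 2, dKD 3 and 4), while the other 7, with both control libraries, lay between 10.4 and 13.2%. Values over these 7 libraries alone are given for some members and comparisons below, and since only Klf5 KD 3 is then left of Klf5 KD, values that use it are given without a p. The shares form a series, with 6.75% in dKD 3, 8.28% in Klf5 KD 2 and 10.4% in Nr5a2 KD 1, so the cut at 10% does not divide 2 distinct sets. The ERCC share was 0.398 and 0.459% in control against 0.204 to 0.378% in the knockdowns, and scaling by ERCC would raise the median change over all genes, in log2, by 0.77 in Nr5a2 KD, 0.65 in Klf5 KD and 0.79 in dKD. Fold changes are therefore relative to the bulk of genes. Cumulus cell markers summed to 0.591-3.52 CPM over 8 genes, with 3 of the 8 at 0 in control and 4 to 7 in the knockdown groups, and oocyte markers to 56.4-122 CPM, with 0 of the 7 tested called in a comparison by edgeR.

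Between genes, levels were compared per kilobase of exon. In control, Zfp42 (18.3 ± 1.21 CPM per kb, SD, n = 2) and Sall4 (16.9 ± 3.60) were the highest, and their libraries overlapped. Tbx3 followed at 8.10 ± 0.0940 CPM per kb, apart from its neighbours on both sides. Prdm14 (6.26 ± 1.60), Sox21 (5.64 ± 0.111), Nanog (5.62 ± 0.0793), Pou5f1 (5.29 ± 1.38), Utf1 (3.89 ± 1.48) and Tfcp2l1 (3.20 ± 0.701) formed a series in which each overlapped the next. Sox2 came last at 0.228 ± 0.323 CPM per kb, below the lowest Tfcp2l1 library. Zfp42 and Sall4 held places 1 and 2 in the other 3 groups too, but the middle of the order moved. Utf1 stood at place 8 in control and 7 in Klf5 KD, and at place 3 in Nr5a2 KD (10.8 ± 4.44 CPM per kb) and dKD (10.3 ± 2.00). Sox21 stood at place 5 in control, 3 in Klf5 KD (8.67 ± 4.64), 9 in Nr5a2 KD (1.22 ± 0.706) and 7 in dKD (2.78 ± 1.47). Prdm14 stood at place 4 in each group but Klf5 KD, where it was at place 9 (1.48 ± 0.135).

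**Figure D1:**
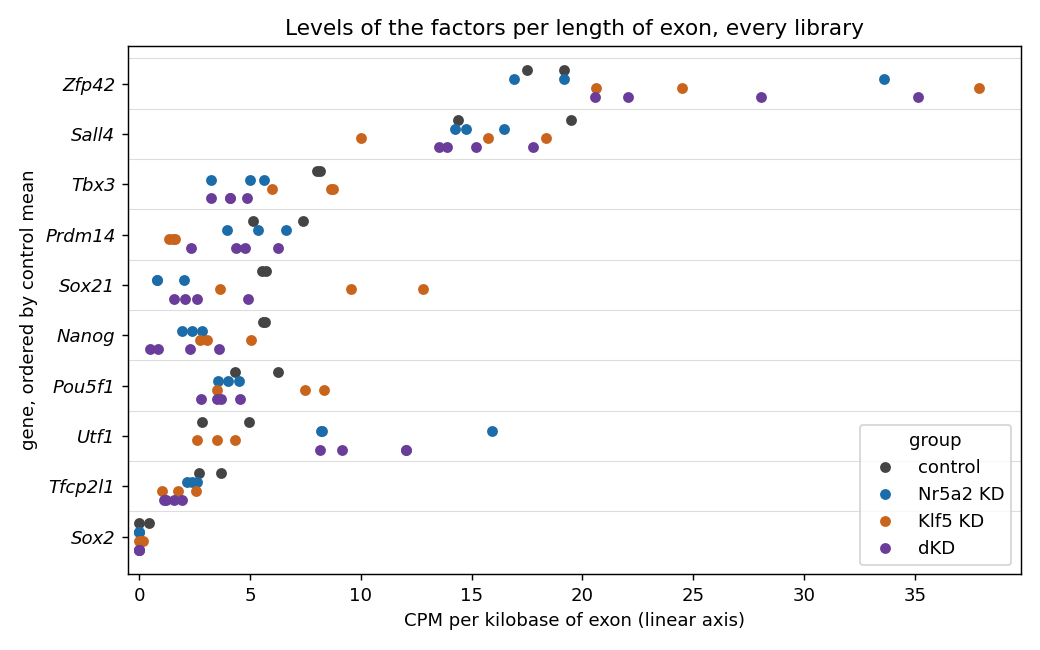
Level of each factor in CPM per kilobase of exon (x axis, linear) in every library, with genes on the y axis in the order of their control means and 1 colour per group. Zfp42 and Sall4 lie to the right in every group, Utf1 moves right in Nr5a2 KD and dKD, and Prdm14 moves left in Klf5 KD, where its 3 libraries sit between 1.34 and 1.60.

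Promoter sequences, the 250 bases before each RefSeq start on GRCm38.p6, were at hand for 7 of the 10 members, in 9 windows. Those of 3 genes are printed: Nanog because it holds the OCT-SOX letters, and Tfcp2l1 and Sox21 because they were called in a comparison with control. Utf1 was called too, but its window reaches into the gene as the count files place it and is not printed. Capitals mark matches, on either strand, to a KLF motif (CCNCNCCC) or to a composite OCT-SOX motif, and overlapping matches merge into 1 run.
Nanog, chr6:122707239-122707488, + strand: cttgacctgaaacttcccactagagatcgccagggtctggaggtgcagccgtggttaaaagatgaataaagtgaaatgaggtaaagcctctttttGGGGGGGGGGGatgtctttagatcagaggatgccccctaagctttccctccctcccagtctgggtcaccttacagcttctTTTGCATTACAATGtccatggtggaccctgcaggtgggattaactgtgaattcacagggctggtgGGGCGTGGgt
Tfcp2l1, chr1:118627695-118627944, + strand: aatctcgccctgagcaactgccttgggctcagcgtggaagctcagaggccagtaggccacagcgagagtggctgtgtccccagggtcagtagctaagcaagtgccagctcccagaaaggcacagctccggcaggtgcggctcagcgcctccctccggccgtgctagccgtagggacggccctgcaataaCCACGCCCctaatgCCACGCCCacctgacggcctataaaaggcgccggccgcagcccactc
Sox21, chr14:118237031-118237280, - strand: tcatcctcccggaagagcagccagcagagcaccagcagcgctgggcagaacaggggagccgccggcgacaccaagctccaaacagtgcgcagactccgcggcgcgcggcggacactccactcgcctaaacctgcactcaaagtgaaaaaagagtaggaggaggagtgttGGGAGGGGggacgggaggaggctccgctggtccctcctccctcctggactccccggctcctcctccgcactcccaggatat
The OCT-SOX letters stood in Nanog from base 75 to base 62 before the start. Only 2 of all 32851 windows (0.00609%) held this exact spelling, and both belong to Nanog, which has a pair of starts here. Other spellings of the composite motif were not searched. The KLF letters were in 8 of the 9 member windows and in 45.9% of all windows, and whether the members differ from other genes in this was not tested. The 3 printed windows have a GC content of 52 to 65.2%. Tfcp2l1 had them at 2 places, from bases 61 and 47 before the start, and Sox21 at 1 place, from base 81. Letters for the NR5A family (AAGGNCA, either strand) were in 17.5% of all windows and in 1 member window, that of Zfp42. No match says only that these letters are not in this window.

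**Figure D2:**
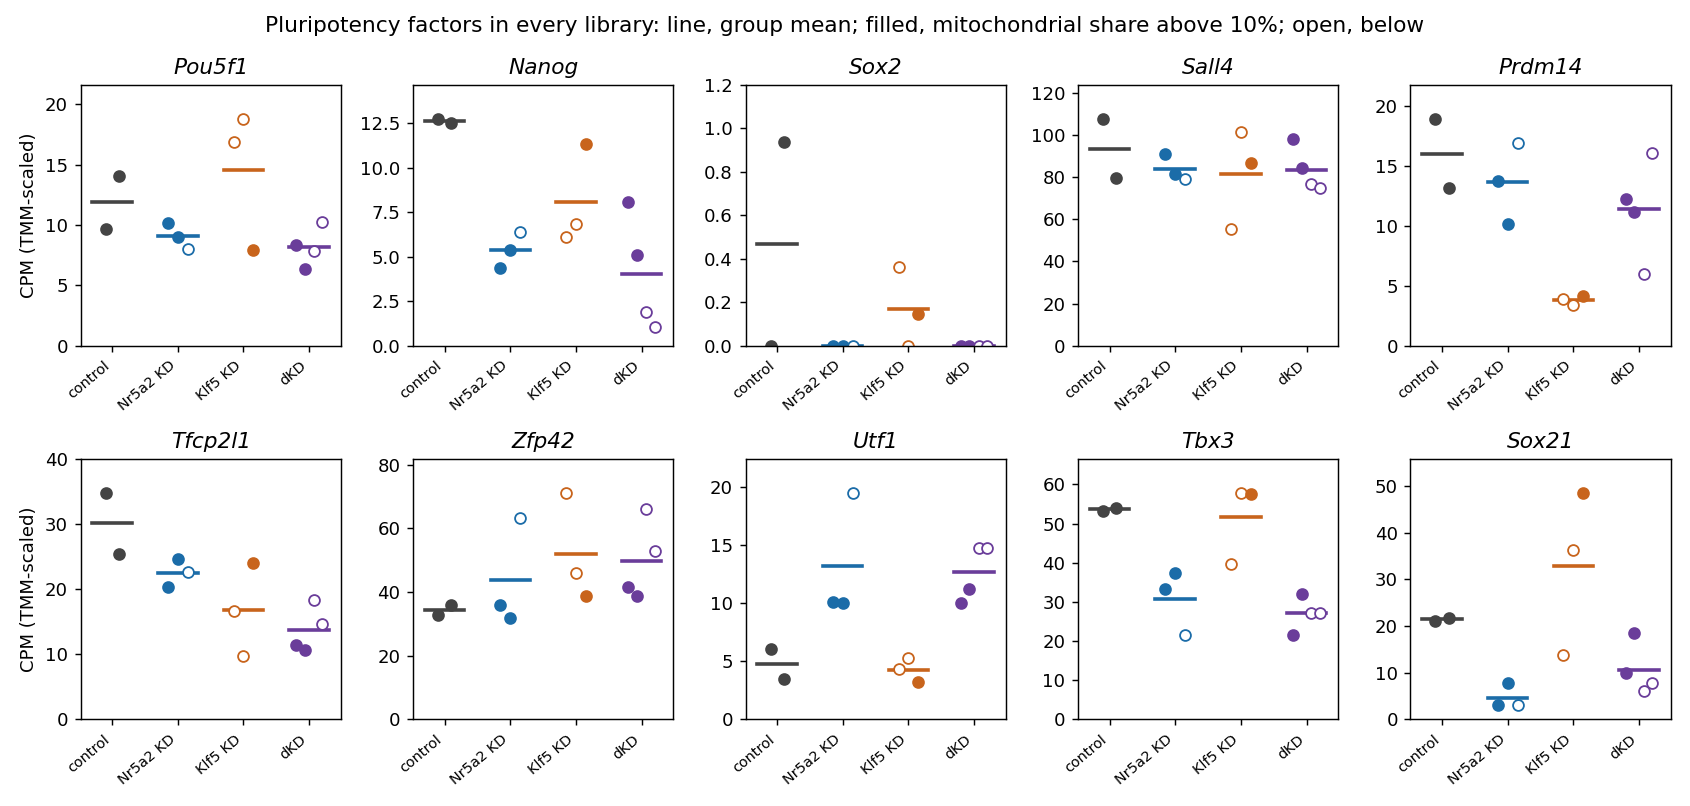
Level of each of the 10 factors (y axis, CPM, from 0) in every library of the 4 groups (x axis), with a line at the group mean. Filled points are libraries with a mitochondrial share above 10% and open points those below it. Sox21 and Nanog are below control in every Nr5a2 KD library, Utf1 is above control in Nr5a2 KD and dKD, and Prdm14 is low in the 3 Klf5 KD libraries, at 3.43 to 4.11 CPM.

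Of the core factors, Pou5f1 (ENSMUSG00000024406, chr17:35506018-35510772, + strand), the gene of OCT4, was at 9.70 and 14.1 CPM in control. It measured 10.1, 9.02 and 8.04 in Nr5a2 KD, 16.9, 18.8 and 7.93 in Klf5 KD, and 8.34, 6.31, 7.85 and 10.3 in dKD. The groups overlapped in all 5 comparisons, and no fold change passed the test. The widest gap was between dKD and Klf5 KD, with a log2 fold change of -0.82 (SE 0.34, adjusted p = 0.136 by edgeR). Klf5 KD 1 and 2, the high libraries, are low in mitochondrial share. Without Klf5 KD 3 it was -1.14 with an adjusted p of 0.0407 by edgeR, and with Klf5 KD 3 as the only library of its group, over the libraries above 10%, it was -0.10. With each library left out in turn, dKD against Klf5 KD was at -1.14 to -0.63.

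Nanog (ENSMUSG00000012396, chr6:122707489-122714633, + strand), the homeobox factor of the core, was at 12.7 and 12.5 CPM in control. All 10 knockdown libraries were lower: 4.36, 5.37 and 6.41 in Nr5a2 KD, 6.12, 6.85 and 11.3 in Klf5 KD, and 8.09, 5.11, 1.89 and 1.06 in dKD. The log2 fold change against control was -1.20 in Nr5a2 KD (SE 0.36, adjusted p = 0.0607 by edgeR), -0.65 in Klf5 KD (SE 0.38, adjusted p = 0.638) and -1.62 in dKD (SE 0.59, adjusted p = 0.115). None was a call, although no group overlapped control. Within dKD the 2 libraries of low mitochondrial share were the lowest, while in Nr5a2 KD the 1 such library, replicate 3, was the highest at 6.41. Nanog passed in Nr5a2 KD without replicate 3 (-1.35, adjusted p = 0.0408 by edgeR) and in dKD without replicate 1 (-2.21, adjusted p = 0.0303). With each library left out in turn, Nanog was at -1.35 to -1.05 in Nr5a2 KD and -2.21 to -1.30 in dKD. Over the libraries above 10% its change in dKD was -0.90 (adjusted p = 0.189 by edgeR), and in Klf5 KD, with its 1 library, -0.17.

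Sox2 (ENSMUSG00000074637, chr3:34650405-34652461, + strand), the SOXB1 partner of OCT4 that is known to come on in inner cells after the 8-cell stage, was close to the limit of detection. Its counts were 0 and 7 in control, 4, 0 and 1 in Klf5 KD, and 0 in all 7 libraries of Nr5a2 KD and dKD. At this depth a count of 0 allows up to 3 counts, or 0.354 to 0.455 CPM in the libraries at 0, so no difference in Sox2 was detectable. It did not pass the filter on low counts, and 9 of the 10 members were tested.

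Sall4 (ENSMUSG00000027547, chr2:168748332-168767943, - strand), a zinc finger partner of OCT4 and NANOG, did not pass the test in any comparison. It was at 108 and 79.6 CPM in control, 91.2, 81.6 and 79.0 in Nr5a2 KD, 55.4, 102 and 87.0 in Klf5 KD, and 98.3, 84.2, 76.9 and 74.8 in dKD. Group means in the knockdowns were 86.9 to 89.6% of control, and the ranges overlapped in all comparisons.

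Among the naive factors, Prdm14 (ENSMUSG00000042414, chr1:13113457-13127163, - strand), a PR-domain regulator that restrains FGF signalling and DNA methylation, had its lowest levels in Klf5 KD. Control libraries were at 18.9 and 13.1 CPM, and Nr5a2 KD at 13.8, 10.2 and 17.0. The Klf5 KD libraries were at 3.87, 3.43 and 4.11, below each of the other 9 libraries. In dKD, where Klf5 was targeted as well, Prdm14 was at 12.3, 11.2, 6.02 and 16.1, above all of Klf5 KD and overlapping control and Nr5a2 KD. Klf5 KD was at 23.7% of control and dKD at 71.0%. The log2 fold change of Klf5 KD against control was -2.07 (SE 0.37). It was not a call by edgeR, with an unadjusted p of 9.71e-05 and an adjusted p of 0.127, and it was one by DESeq2 (-2.06, adjusted p = 0.00404). Over the 11 alternative settings that keep all its libraries the adjusted p ranged from 0.00284 to 0.465 and the log2 fold change from -2.12 to -2.02, with spike-in scaling taken relative to the shift of the median (-1.44 as fitted). With each library left out in turn it was -2.29 to -1.76 and not a call by edgeR. Over the libraries above 10% mitochondrial share, where Klf5 KD keeps a single library, the change was -1.97.

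Between dKD and Klf5 KD, Prdm14 rose by 1.59 on the log2 scale (SE 0.38, adjusted p = 0.0150 by edgeR), or 3.00-fold in mean CPM. The exact two-sided permutation test over the 7 libraries gave p = 0.0571, where 0.0286 is the smallest possible. The call was lost without Klf5 KD 2 (adjusted p = 0.0656) or without dKD 4 (adjusted p = 0.0513 by edgeR). Over the libraries above 10% mitochondrial share, with 1 library of Klf5 KD, the change was 1.53. The interaction term, which asks whether the change with Klf5 siRNA differs in the presence of Nr5a2 siRNA, was 1.81 for Prdm14 (SE 0.51). Its unadjusted p was 0.00239 and its adjusted p 0.896 by edgeR over 14830 genes, so a difference between the 2 settings was not shown.

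Tfcp2l1 (ENSMUSG00000026380, chr1:118627945-118685168, + strand), a CP2-family factor of the naive state downstream of LIF signalling, was at 34.9 and 25.5 CPM in control. Every knockdown library lay below both: 20.4, 24.7 and 22.6 in Nr5a2 KD, 16.7, 9.80 and 24.1 in Klf5 KD, and 11.5, 10.6, 18.3 and 14.6 in dKD. The group means were 74.7, 55.9 and 45.6% of control, and dKD was also entirely below Nr5a2 KD. Only dKD was called against control, with a log2 fold change of -1.08 (SE 0.29, adjusted p = 0.0433 by edgeR). Nr5a2 KD was at -0.39 (SE 0.26, adjusted p = 0.406) and Klf5 KD at -0.84 (SE 0.37, adjusted p = 0.566). The call was lost when control 1, control 2, dKD 1, dKD 2 or dKD 4 was left out (-1.28 to -0.85, adjusted p of 0.0591 to 0.345 by edgeR), and under total-count scaling (-0.94 as fitted, adjusted p = 0.0687) or spike-in scaling (-0.27 as fitted, adjusted p = 0.638). Relative to the shift of all genes these were -1.08 and -1.05, about the same fold as above. Without control 1 or control 2 the share of all genes called lower in dKD fell as well, from 3.85% to 0.597 and 0.689%. Over the libraries above 10% mitochondrial share the change in dKD was -1.42 (adjusted p = 0.0229 by edgeR), and in Klf5 KD, with 1 library, -0.34. Against Nr5a2 KD, dKD had a log2 fold change of -0.70 (SE 0.26, unadjusted p = 0.0173, adjusted p = 0.999 by edgeR), and the exact permutation test gave p = 0.0571. With the replicate number as a block, which pairs these libraries, it was -0.77 (SE 0.25, adjusted p = 0.550 by edgeR), and over the libraries above 10% mitochondrial share, unpaired, -1.02 (unadjusted p = 0.00722, adjusted p = 1.00 by edgeR).

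Tbx3 (ENSMUSG00000018604, chr5:119670669-119684724, + strand), a T-box factor of the naive state, separated the groups by Nr5a2 siRNA. Control was at 53.2 and 54.1 CPM and Klf5 KD at 39.6, 57.9 and 57.5. Nr5a2 KD was at 33.3, 37.4 and 21.5, and dKD at 21.6, 32.1, 27.2 and 27.3. All 7 libraries with Nr5a2 siRNA were below all 5 without it. Its log2 fold change reached -0.78 in Nr5a2 KD (SE 0.26, adjusted p = 0.0884 by edgeR) and -0.95 in dKD (SE 0.23, adjusted p = 0.0257), and dKD against Klf5 KD gave -0.93 (SE 0.24, adjusted p = 0.0237). The last pair passed the adjusted p but not the 2-fold minimum, so Tbx3 was not a call in any comparison. Without dKD 2 it passed both limits against control (-1.04, adjusted p = 0.0234 by edgeR) and against Klf5 KD (-1.01, adjusted p = 0.0324), and without Klf5 KD 1 against Klf5 KD (-1.06, adjusted p = 0.0191). With each library left out in turn, dKD was at -1.04 to -0.86 against control and -1.06 to -0.83 against Klf5 KD. Without the libraries under 10% mitochondrial share Tbx3 was at -0.58 in Nr5a2 KD (adjusted p = 0.103 by edgeR) and -0.98 in dKD (adjusted p = 0.0479), and against the 1 library of Klf5 KD it was -1.09. Under total-count scaling dKD did not pass against control (-0.81 as fitted, adjusted p = 0.0526 by edgeR) or Klf5 KD (-0.71, adjusted p = 0.0778). The same held under spike-in scaling (-0.16 and -0.75 as fitted, adjusted p = 0.729 and 0.256 by edgeR). Relative to the shift of all genes, the change against control was -1.01 to -0.95 over the 12 alternative settings.

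Zfp42 (ENSMUSG00000051176, chr8:43295063-43306980, - strand) encodes REX1, a zinc finger marker of naive pluripotency. It was at 32.9 and 36.1 CPM in control, 36.1, 31.8 and 63.2 in Nr5a2 KD, 71.2, 46.1 and 38.8 in Klf5 KD, and 41.5, 38.7, 66.1 and 52.8 in dKD. No difference passed the test, with log2 fold changes against control of 0.37 (SE 0.31), 0.61 (SE 0.33) and 0.57 (SE 0.27). Under spike-in scaling, which raised 20.7% of all genes past both limits in dKD, Zfp42 was called there (1.41 as fitted, adjusted p = 0.0380 by edgeR). Its level ran with the mitochondrial share: the 5 libraries below 10% were at 46.1 to 71.2 CPM and the 7 above at 31.8 to 41.5. Leaving out the libraries under 10%, the changes were 0.0017, 0.15 and 0.24. The part of the mitochondrial share in these values was not tested. A pseudogene, Zfp42-ps1, took 219 counts over the 12 libraries, and since a near-identical copy can share reads the level of Zfp42 is uncertain to that extent.

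**Figure D3:**
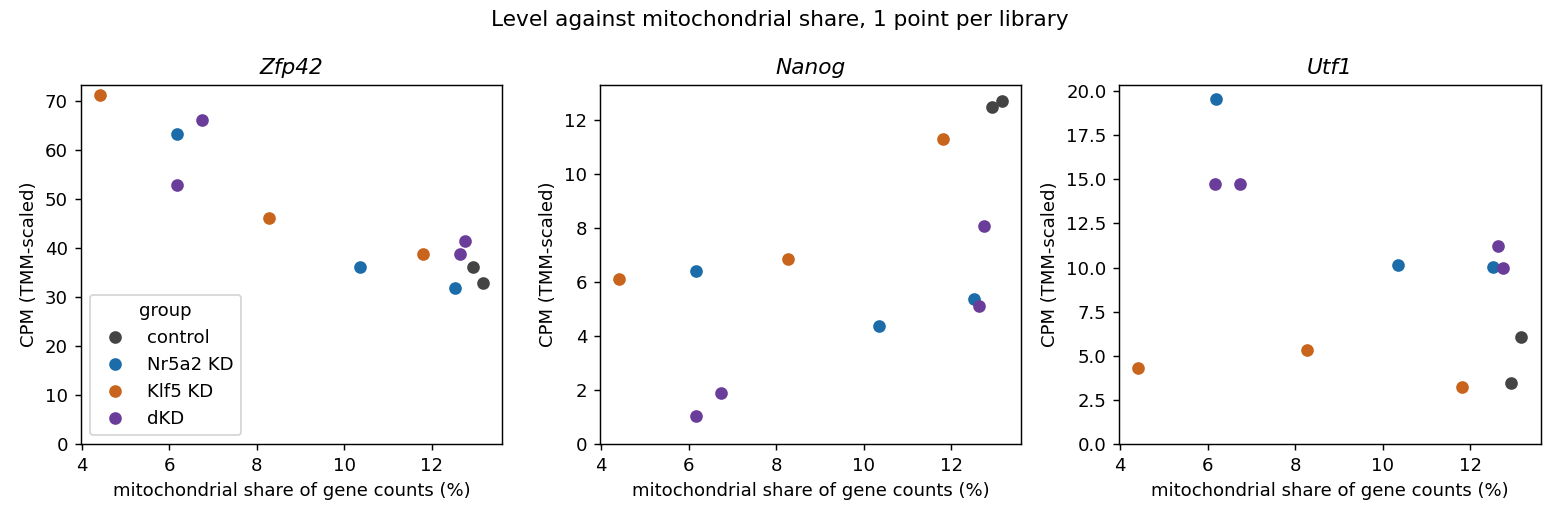
CPM of Zfp42, Nanog and Utf1 (y axes, from 0) against the share of gene counts from mitochondrially encoded genes (x axes, percent), with 1 point per library and 1 colour per group. The 5 libraries under 10% hold the 5 highest Zfp42 values and, in dKD, the 2 lowest Nanog values. In Nr5a2 KD the library under 10% has the highest Nanog value of its group.

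Utf1 (ENSMUSG00000047751, chr7:139943789-139945112, + strand), which limits the activity of bivalent genes, was called higher in dKD. It was at 6.06 and 3.49 CPM in control and 4.32, 5.32 and 3.23 in Klf5 KD. With Nr5a2 siRNA it was at 10.1, 10.1 and 19.5 in Nr5a2 KD and at 9.99, 11.2, 14.8 and 14.8 in dKD, so that these 7 libraries lay above the other 5. The mean was 277% of control in Nr5a2 KD and 266% in dKD. The log2 fold change was 1.46 in dKD against control (SE 0.37, adjusted p = 0.0356 by edgeR) and 1.57 in dKD against Klf5 KD (SE 0.33, adjusted p = 0.00813), both calls. In Nr5a2 KD it was 1.51 (SE 0.45), just short of a call with an adjusted p of 0.0567 by edgeR, and it was called by DESeq2 (adjusted p = 0.0246) and, with spike-in scaling, by edgeR (2.39 as fitted, adjusted p = 0.0373). Over the 12 alternative settings there it was 0.88 to 1.62, with spike-in scaling taken relative to the shift of the median. The adjusted p ranged from 0.0107 to 0.308 by edgeR or DESeq2. The highest values within Nr5a2 KD and dKD were in the libraries of low mitochondrial share. Leaving out those libraries, the change was 1.11 in Nr5a2 KD (adjusted p = 0.121 by edgeR), 1.18 in dKD (adjusted p = 0.131) and 1.73 against the 1 library of Klf5 KD. The call against control was lost without control 1, control 2, dKD 3 or dKD 4 (1.11 to 1.90, adjusted p of 0.0753 to 0.305 by edgeR). Without control 1 or control 2 the share of all genes called higher in dKD fell as well, from 3.38% to 0.269 and 0.437%. The call against Klf5 KD held with each library left out in turn.

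Sox21 (ENSMUSG00000061517, chr14:118233232-118237030, - strand) was called lower in Nr5a2 KD. Control libraries were at 21.1 and 21.7 CPM. Nr5a2 KD was at 3.01, 7.71 and 3.14, which is 21.6% of control, and dKD at 9.86, 18.6, 6.02 and 7.79, or 49.3%. Klf5 KD went from 13.8 to 36.4 and 48.6, on both sides of control. The log2 fold change in Nr5a2 KD was -2.19 (SE 0.41, adjusted p = 0.00774 by edgeR), the only call among members there. It was lost without control 2 (-2.17, adjusted p = 0.0518), with spike-in scaling (-1.53 as fitted and -2.30 relative to the shift of all genes, adjusted p = 0.0708) and when the mitochondrial share entered as covariate (-1.66, adjusted p = 0.0587), and it held over the libraries above 10% (-1.98, adjusted p = 0.0110 by edgeR). Without control 2 the share of all genes called lower in Nr5a2 KD fell from 4.42% to 1.27%.

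In dKD, Sox21 was at -0.997 against control (SE 0.39, adjusted p = 0.136 by edgeR), and without dKD 2 at -1.40 (adjusted p = 0.0208). Without the libraries under 10% mitochondrial share it was -0.57 (adjusted p = 0.357 by edgeR). Against Klf5 KD the change was -1.63 (SE 0.44, adjusted p = 0.0263 by edgeR), a call although dKD 2 overlapped Klf5 KD 1. That call was lost without Klf5 KD 2, Klf5 KD 3, dKD 1, dKD 3 or dKD 4, at adjusted p values of 0.0542 to 0.0957. Against the 1 library of Klf5 KD above 10% mitochondrial share, dKD was at -1.76. Against Nr5a2 KD, dKD was higher by 1.19 (SE 0.46, unadjusted p = 0.0242, adjusted p = 0.999 by edgeR). The libraries overlapped, but Sox21 was higher in dKD in each of the 3 same-numbered pairs, and with the pairs as a block it was 1.30 (SE 0.32, unadjusted p = 0.00128, adjusted p = 0.454 by edgeR). An antisense gene, Gm4675, shares 713 bases (18.8%) of the Sox21 exons on the opposite strand. The kit does not mark strand and read pairs over both genes were split between them, so reads of the pair cannot be told apart there. The same holds for Gm19553 over 14.1% of Pou5f1, Gm14261 over 9.50% of Sall4 and Tbx3os1 over 1.74% of Tbx3.

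**Figure D4:**
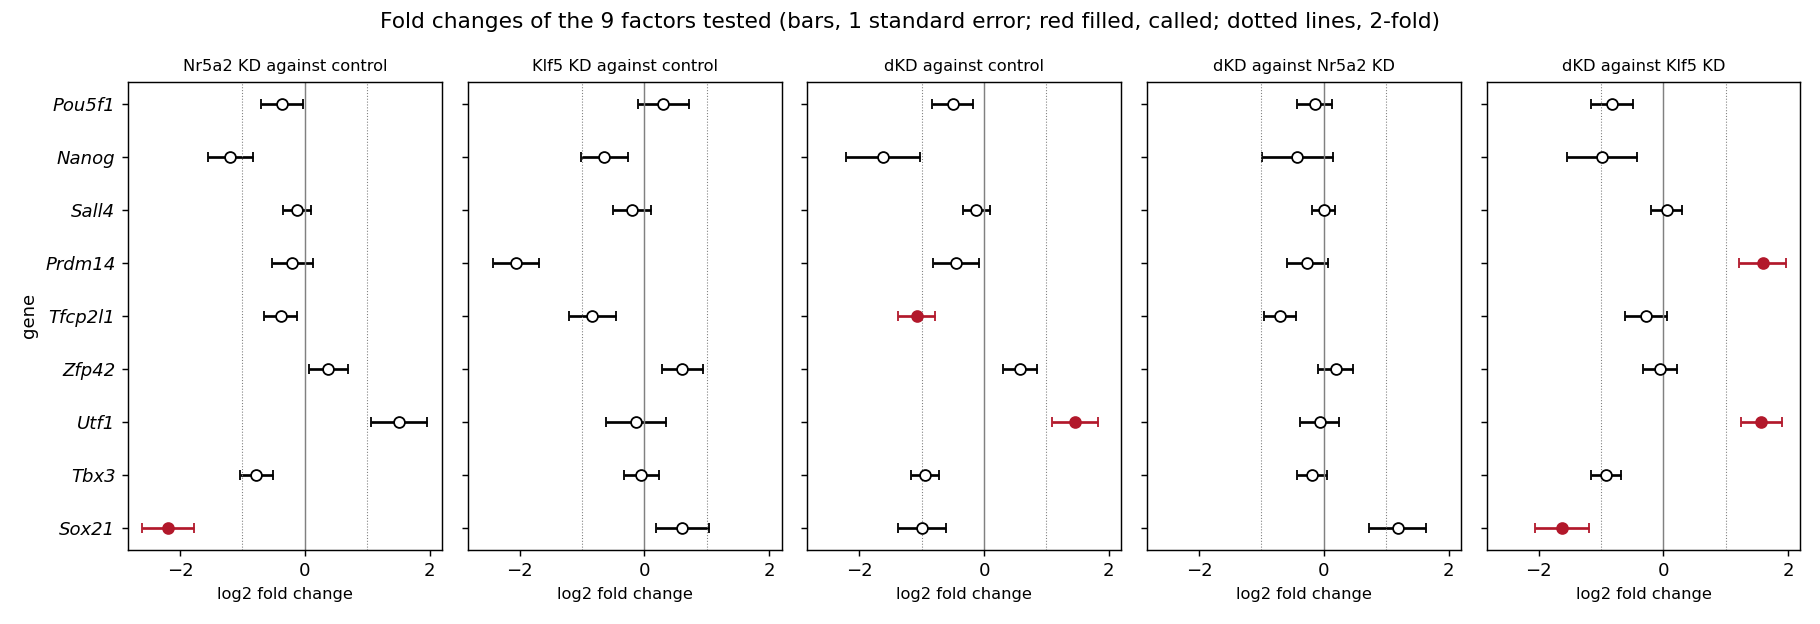
Log2 fold change of the 9 tested factors (y axis) in 5 comparisons (panels), with bars of 1 standard error. Red filled points are calls (adjusted p under 0.05, 2-fold or more), and dotted lines mark 2-fold. Sox21 is called in Nr5a2 KD, Tfcp2l1 and Utf1 in dKD, and Prdm14, Utf1 and Sox21 in dKD against Klf5 KD.

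Set side by side over the 9 tested members, Nr5a2 KD against control had 1 member called lower and 0 higher by edgeR, where 4.42% of the 13262 genes tested were called lower and 3.45% higher. For 4 members the unadjusted p was under 0.05, against 24.1% of all genes. Groups did not overlap for 4 members that were lower (Nanog, Tfcp2l1, Tbx3 and Sox21) and for 1 that was higher (Utf1), against 22.5% and 20% of genes. The median log2 fold change of the members was -0.37, and that of all genes 0.04. Since the members were chosen with earlier results known, values of all genes are set beside them for reference only.

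Klf5 KD against control had 0 members called by edgeR, as it had 0 genes of 12838 (0%). Of the members, 2 (Prdm14 and Tfcp2l1) had an unadjusted p under 0.05, as did 1088 genes (8.47%). DESeq2 called 42 genes lower and 8 higher, with Prdm14 among them. Without overlap, 3 members were lower (Nanog, Prdm14 and Tfcp2l1) and Zfp42 was higher, against 14.4% and 12.6% of genes. Under spike-in scaling Prdm14 alone was lower and Zfp42, Tbx3 and Sox21 were higher without overlap, where 2.58% of genes were lower and 35.7% higher. The median member change was -0.14 and that of all genes 0.00.

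For dKD against control, 1 member was called lower and 1 higher by edgeR, against 3.85% and 3.38% of the 13724 genes. For 5 members the unadjusted p was under 0.05, where 25% of genes did. Nanog, Tfcp2l1, Tbx3 and Sox21 were lower without overlap, and Zfp42 and Utf1 higher, against 19.2% and 17% of genes. The median was -0.50 for members and 0.05 for all genes. Under spike-in scaling Nanog, Tfcp2l1 and Tbx3 overlapped control in both Nr5a2 KD and dKD, and Sox21 in dKD. That scaling moves all genes up, and the share without overlap was then 5.20% lower and 47.9% higher in Nr5a2 KD, and 4.24% and 47.6% in dKD. Under total-count scaling Tfcp2l1 overlapped control in Nr5a2 KD and Sox21 in dKD. Both contrasts with Nr5a2 siRNA use the same 2 control libraries, so they are not independent of each other.

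Between dKD and Nr5a2 KD, which differ in Klf5 siRNA, 0 members and 0 of 13017 genes (0%) were called by edgeR, and 447 genes (3.43%) and 2 members, Tfcp2l1 and Sox21, had an unadjusted p under 0.05. With the paired block it was 855 genes (6.57%) and the same 2 members, again with 0 calls. DESeq2 called 4 genes, none a member. Tfcp2l1 alone was without overlap, lower, against 2.43% of genes, and 0 members were higher, against 2.34%. Under spike-in scaling Tfcp2l1 overlapped and Sox21 was higher without overlap, where 1.37% of genes were lower and 1.34% higher. Between dKD and Klf5 KD, which differ in Nr5a2 siRNA, Sox21 was called lower and Prdm14 and Utf1 higher by edgeR, against 5.41% and 5.38% of 12904 genes. For 5 members the unadjusted p was under 0.05, against 26.6% of genes. Tbx3 was lower and Prdm14 and Utf1 higher without overlap, against 12.6% and 12.3%. The interaction gave 0 members and 0 of 14830 genes (0%) by edgeR, with 715 genes (4.82%) and Prdm14 alone among members under an unadjusted p of 0.05. DESeq2 called 3 genes for it, none a member.

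Of 42 further genes of the pluripotency network, 27 were tested in Nr5a2 KD against control, where 3 were called lower and 2 higher by edgeR, beside 4.42% and 3.45% of all genes. Tdgf1, the NODAL co-receptor Cripto, was at 32.6 and 53.5 CPM in control and at 3.18, 1.10 and 1.88 in Nr5a2 KD, a log2 fold change of -4.34 (SE 0.41, adjusted p = 0.000321 by edgeR). Klf4, a KLF factor of the naive state, was at 46.7 and 66.2 CPM in control and 20.4, 11.8 and 5.90 in Nr5a2 KD (-2.13, SE 0.39, adjusted p = 0.00678 by edgeR). Sall1, a paralogue of Sall4, was at 27.3 and 29.4 CPM in control and 7.08, 9.51 and 3.39 in Nr5a2 KD (-2.07, SE 0.38, adjusted p = 0.00641). Sall1 thus fell where its paralogue Sall4 did not pass the test. Esrrb, an orphan nuclear receptor of the naive network, rose from 21.4 and 17.98 CPM to 39.1, 52.1 and 30.9 (1.07, SE 0.28, adjusted p = 0.0361 by edgeR). Mycn, a MYC family gene, was called higher from 0 and 1 count in control to 2.89 to 3.30 CPM in Nr5a2 KD. Its control is below the limit of 3 counts, and no fold is given. Over the libraries above 10% mitochondrial share the calls of Tdgf1 (-4.27), Klf4 (-1.78), Sall1 (-1.75), Esrrb (1.24) and Mycn held by edgeR.

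The same Tdgf1, Klf4 and Sall1 were the 3 genes called lower in dKD against control, of 28 tested, at -4.27 (SE 0.59), -1.76 (SE 0.27) and -1.92 (SE 0.41), and Mycn was the 1 called higher, beside 3.85% and 3.38% of all genes. Their adjusted p values were 0.00265, 0.00422, 0.0154 and 0.0114 by edgeR. The calls of Tdgf1 (-3.68), Klf4 (-1.54), Sall1 (-1.38) and Mycn held over the libraries above 10%. Klf5 KD gave 0 calls of 28 by edgeR, and its libraries held 58.4 to 106 CPM of Klf4 and 18.1 to 40.2 of Sall1. For dKD against Klf5 KD, 4 were called lower and 2 higher, of 28, beside 5.41% and 5.38% of all genes. Dppa5a, an RNA-binding marker of pluripotent cells, was lower there too (-1.19, SE 0.20, adjusted p = 0.00251 by edgeR), and Etv5, an ETS factor downstream of FGF signalling, was higher beside Mycn (1.91, SE 0.51, adjusted p = 0.0261). Against the 1 library of Klf5 KD above 10%, Etv5 was at 1.30, Mycn at 2.15, Dppa5a at -1.10, Tdgf1 at -3.01, Klf4 at -2.22 and Sall1 at -1.50. None of 27 was called between dKD and Nr5a2 KD or of 31 for the interaction. The median over the list lay between -0.07 and 0.07 in these comparisons, close to that of all genes.

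For the 4 members called in a comparison, the genes whose log2 CPM ran most alike over the 12 libraries were listed, among 6566 genes with a mean of at least 10 CPM. They share libraries and depth, and a correlation here describes a pattern only. Prdm14 was followed by Cwf19l2 (Pearson r = 0.877), Esrp1 (0.867) and Cdc73 (0.842). Tfcp2l1 was followed by Far2 (0.839), Ttc39b (0.805) and Palm3 (0.777). Utf1 had closer neighbours in Erbb3 (0.971), Phf6 (0.961) and 2610507B11Rik (0.960), and Sox21 in Tbc1d9 (0.955), Ei24 (0.951) and Mzt1 (0.935). By rank correlation Cwf19l2 and Far2 stayed among the first 3 of Prdm14 and Tfcp2l1, and none of the other 10 did.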

How the data were processed

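Poly(A) cDNA from pools of 10 embryos was made with SMART-seq v4, a kit that keeps neither strand nor molecular identifiers, with ERCC spike-ins. The authors trimmed reads with Trim Galore 0.6.2, mapped them with STAR and counted exons with featureCounts 2.0.1, splitting reads over overlapping genes. The deposited values are therefore estimated counts per gene (Ensembl release 102, GRCm38), with 7.30 to 8.66% of a library's genes not whole, and were rounded here.

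edgeR 4.0.16 (R 4.3.3) was run on all genes with TMM factors and filterByExpr (minimum count 10, minimum total 15), by quasi-likelihood tests with Benjamini-Hochberg adjustment over all genes tested. Genes were called at 2-fold or more with an adjusted p below 0.05. DESeq2 1.42.0 was an alternative, beside other scalings, filters, covariates and left-out libraries. The comparison over libraries with a mitochondrial share above 10% was chosen after seeing the data. The 10 members were all named, with the network genes called in a comparison, and for members called, the 3 genes with the highest correlation of log2(CPM + 1). Members and gene lists were chosen with earlier results of these data known.

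Same-numbered Nr5a2 KD and dKD libraries deviated together (r = 0.13, 0.221 and 0.254 across genes), and numbers were taken as pairs there, as every same-number r was over 0.1. Unlike numbers gave r of -0.249 to 0.264, the highest for dKD 4 and Nr5a2 KD 3, both low in mitochondrial share, so the pairing is a hint from the data. In the other comparisons numbers were not taken as pairs.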

Additional observations from a re-analysis of the deposited data

How the results depend on the processing

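Members called moved with the processing as follows, by edgeR unless DESeq2 is named, with the shares of all genes called lower and higher under that setting. In Nr5a2 KD against control the 1 (Sox21) became 2 with Utf1 under DESeq2 (4.76 and 4.48%), no filter (2.82 and 2.65%), a mean of at least 50 counts (5.72 and 4.40%) and all 12 libraries in one fit (3.57 and 2.32%), 2 with Nanog over the libraries above 10% mitochondrial share (4.56 and 3.27%), and 0 with that share as a covariate (2.81 and 2.13%). Under spike-in scaling the 1 was Utf1 (0.679 and 5.74%). In Klf5 KD the 0 became 1, Prdm14, under DESeq2 (0.327 and 0.0623%), no filter (0.262 and 0.171%) and the replicate block (1.14 and 0.833%), and 2 with Sox21 over the libraries above 10% (0.730 and 0.336%), where Klf5 KD is 1 library assumed to vary like the controls, so this count carries no weight. In dKD the 2 (Tfcp2l1 and Utf1) became 1, Utf1, with total counts (3.05 and 4.74%), 4 with Nanog and Sox21 without a filter (2.87 and 2.88%), 3 with Tbx3 without the 2-fold minimum (4.59 and 3.75%), and 1, Tfcp2l1, with the covariate (3.02 and 2.75%) and 1 over the libraries above 10% (3.24 and 2.25%). The 2 were Zfp42 and Utf1 under spike-in scaling (1.30 and 20.7%) and Tfcp2l1 and Tbx3 with the block (3.84 and 3.71%). For dKD against Klf5 KD the 3 (Prdm14, Utf1 and Sox21) became 4 with Tbx3 without the 2-fold minimum (6.73 and 5.91%), 4 with Nanog under the covariate (6.45% each way), 0 with the replicate block (2.23 and 1.89%), where numbers are shared but do not pair the libraries, and 1, Sox21, over the libraries above 10% (2.23 and 1.61%), again with 1 library of Klf5 KD. The block changed no member call between dKD and Nr5a2 KD, where numbers pair.

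With each library left out in turn, the counts ranged from 0 to 2 in Nr5a2 KD, stayed at 0 in Klf5 KD, ranged from 0 to 3 in dKD, were 0 in dKD against Nr5a2 KD and 1 to 4 in dKD against Klf5 KD. The share of all genes called moved as well. Without control 1 it was 1.40% lower and 0.773% higher in Nr5a2 KD and 0.597 and 0.269% in dKD. For dKD against Klf5 KD it was 3.72 and 2.98% without Klf5 KD 2. Members without overlap numbered 5 to 7, 4 to 6, 6 to 8, 1 to 3 and 3 to 4 with each library left out. No share of all genes was taken for this, and smaller groups separate more easily, so these counts say nothing about the members alone. Under spike-in scaling members without overlap were 3 in place of 5 in Nr5a2 KD (1 lower, 2 higher) and 3 in place of 6 in dKD (0 lower, 3 higher), where 47.9 and 47.6% of all genes were then higher without overlap. The change of Zfp42 reversed to -0.014 with the block and to -0.27 with the covariate in Nr5a2 KD, and to -0.077 with the covariate in Klf5 KD. The cause was not tested. With 2 control libraries and counts near 0 for Sox2, depth and replication limit what could be called.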

Other observations

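Among marker genes of the first lineages, 4 of the 6 tested trophectoderm genes were called in Nr5a2 KD against control by edgeR, 2 lower and 2 higher, beside 4.42% and 3.45% of all genes. Tead4, a transcription factor of the trophectoderm programme, had a log2 fold change of -1.01 (SE 0.27, adjusted p = 0.0393 by edgeR) and Hand1, a factor of trophoblast giant cells, -2.73 (SE 0.32, adjusted p = 0.000627). The keratins Krt8 (2.21, SE 0.44, adjusted p = 0.0100 by edgeR) and Krt18 (2.68, SE 0.63, adjusted p = 0.0221) were higher. In dKD 1 of the 6 was called, Hand1 at -2.83 (SE 0.66, adjusted p = 0.0239 by edgeR), where 3.85% of genes were called lower. Over the libraries above 10% mitochondrial share, Tead4 in Nr5a2 KD fell short of 2-fold (-0.87, adjusted p = 0.0461 by edgeR), and Hand1 (-2.61 in Nr5a2 KD and -2.18 in dKD), Krt8 (2.25) and Krt18 (2.42) stayed calls. In dKD against Klf5 KD, Krt8 was the 1 trophectoderm gene of 6 called (2.10, SE 0.60, adjusted p = 0.0367 by edgeR). Of the 4 primitive endoderm genes tested, 0 were called in Nr5a2 KD, Klf5 KD or dKD against control. In dKD against Klf5 KD 1 was called lower, the adaptor gene Dab2 (-1.26, SE 0.27, adjusted p = 0.00955 by edgeR), and 1 higher, the receptor gene Pdgfra (1.89, SE 0.52, adjusted p = 0.0305), beside 5.41% and 5.38% of all genes. Of 2 tested genes of the epiblast after implantation, Dnmt3b, a DNA methyltransferase gene, was called higher there (1.58, SE 0.40, adjusted p = 0.0198 by edgeR). Against the 1 library of Klf5 KD above 10%, dKD was at 4.22 for Krt8, -0.97 for Dab2, 3.24 for Pdgfra and 1.03 for Dnmt3b. Of the 2-cell genes, 1 of 6 tested was called in dKD, where Zfp352 was higher (2.81, SE 0.60, adjusted p = 0.0156 by edgeR; 2.78 and adjusted p = 0.0515 over the libraries above 10%), beside 3.38% of all genes, and the 8 listed genes summed to 9.23 to 22.6 CPM over the libraries.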
